A study of Mus musculus with 8 samples.

Results

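The portal vein mural cells of the adult mouse liver were the 72 cells of community cluster 8 (#m8c), a cluster that the authors had made with pagoda2, among 1337 mesenchymal cells and 3491 liver cells in all. Members were taken by that cluster label alone. The cells were isolated from adult male and female C57BL6 mice, whose livers carried fluorescent reporters (*Pdgfrb*-GFP, *Pdgfra*-H2bGFP, *Acta2*-GFP, *Cspg4*-dsRED or *Cldn5*-GFP) or were stained for PDGFRα, were sorted into plates and were sequenced by Smart-seq2, a full-length method that counts reads and not molecules. No treatment was given, every reporter strain contributed healthy tissue, and a reporter decides which cells enter a plate, so numbers of cells per cluster reflect the sort. The cluster was set beside arterial smooth muscle cells (SMC) in #m2c (236 cells), venous SMC in #m9c (39 cells) and #m15c (33 cells) and the second layer cells around the vessel wall in #m5c (87 cells).

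The 72 cells divided into 60 of the male pool, spread over 6 plates, and 12 of the female pool, all from 1 plate. A single plate held 34 of them and no cell of #m2c. The labels name no mouse, and the pool of a sex was therefore the replicate, which leaves 2 sums of counts per cluster and confounds sex with plate. Total counts ran from 55170 to 587702 per portal vein mural cell, with a median of 227280, against a median of 214712 in #m2c. The summed counts were 14299926 and 3342595 in the male and female pool. Pool sums of the other clusters lay between 1634619 (7 cells, #m15c, male) and 33345010 (109 cells, #m2c, female). Levels below are CPM, the counts of a gene scaled to the total of its sum, male pool first and female pool second, unless a sentence speaks of single cells.

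Mural cells wrap the endothelial tube and form a graded series, from smooth muscle cells that contract around arteries and, more weakly, around veins, to pericytes on capillaries. Notch3, a receptor that is switched on by Jagged ligands on endothelium and on neighbouring mural cells, releases an intracellular domain that joins the DNA-binding protein RBPJ and raises targets such as *Heyl*. The portal vein carries blood from the gut at low pressure into the sinusoids. Its wall is thin, and it shares the portal tract with the hepatic artery and the bile duct.

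The 4 marker genes of the cluster are *Ephx3*, an epoxide hydrolase that opens lipid epoxides, *Notch3*, *Il34*, a ligand of the macrophage growth factor receptor CSF1R, and *Itga11*, the α chain of a collagen-binding integrin. *Ephx3* (ENSMUSG00000037577.13, GRCm38 chr17:32183770-32189549, minus strand) and *Notch3* (ENSMUSG00000038146.8, chr17:32120820-32166852, minus strand) lie side by side on chromosome 17. Their annotated ends are 16.9 kb apart, with 1 processed pseudogene and no protein-coding gene between them in GENCODE vM21. *Il34* is at chr8:110741829-110805924 (minus strand) and *Itga11* at chr9:62677826-62783982 (plus strand). An antisense gene, *Gm17276* (chr17:32113411-32141843, plus strand), overlaps *Notch3*, and since the counting is not stated to use strand, reads in the overlap cannot be told apart. *Gm17276* itself was at 103 and 28.1 CPM in #m8c.

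The promoters of the neighbouring pair are shown because both genes had their highest sum of each pool in the same cluster, and that of *Itga11* is shown as a marker on another chromosome. Each is the 250 bases before the RefSeq start (GRCm38.p6), written 5′ to 3′ on the strand of the gene, with GGGCGG, the Sp1 box, on either strand in capitals. The windows are chr17:32189471-32189720 for *Ephx3*, chr17:32166891-32167140 for *Notch3* and chr9:62677605-62677854 for *Itga11*. The RefSeq starts of *Ephx3* and *Itga11* lie inside the GENCODE genes, so part of each of those 2 windows does too.
Ephx3: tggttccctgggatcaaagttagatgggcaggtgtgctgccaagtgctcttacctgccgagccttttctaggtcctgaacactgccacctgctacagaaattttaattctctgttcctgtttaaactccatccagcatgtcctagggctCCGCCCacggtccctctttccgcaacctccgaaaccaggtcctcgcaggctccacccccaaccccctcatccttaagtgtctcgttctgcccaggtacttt
Notch3: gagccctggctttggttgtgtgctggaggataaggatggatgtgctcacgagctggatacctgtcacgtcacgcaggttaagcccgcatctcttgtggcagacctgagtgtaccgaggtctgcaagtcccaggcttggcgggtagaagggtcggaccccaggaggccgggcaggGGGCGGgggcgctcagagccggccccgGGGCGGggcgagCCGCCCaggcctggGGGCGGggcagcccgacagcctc
Itga11: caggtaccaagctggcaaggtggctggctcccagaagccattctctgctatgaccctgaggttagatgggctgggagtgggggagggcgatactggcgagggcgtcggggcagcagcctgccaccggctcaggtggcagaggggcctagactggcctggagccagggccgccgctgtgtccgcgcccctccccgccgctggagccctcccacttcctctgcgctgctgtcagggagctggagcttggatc
GGGCGG was found 1 time before *Ephx3*, 4 times before *Notch3* and 0 times before *Itga11*, and 32.7% of the 32851 promoters in the table hold it. TGGGAA, the core that RBPJ binds, was searched on both strands and was in none of the 3 windows, against 21.6% of all promoters. The CArG box of serum response factor was likewise in none of the 3, against 1.47% of all. The G and C content was 54.0%, 68.8% and 68.4%, and the median over all promoters was 52.4%. These letters describe the windows and carry no statement about binding.

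*Ephx3* was at 1595 and 2068 CPM in #m8c. The other sums were 426 and 416 CPM in #m2c, 118 and 408 in #m9c, 144 and 94.3 in #m15c and 9.0 and 15.4 in #m5c. No other sum overlapped the portal vein pair, and the second layer was lowest by far. *Notch3* was at 2372 and 1163 CPM, against 563 and 830 in #m2c, 1203 and 684 in #m9c, 354 and 286 in #m15c and 234 and 181 in #m5c. The male #m9c sum exceeded the female #m8c sum, so the groups overlapped across pools, while within each pool #m8c was highest. *Il34* was at 336 and 385 CPM, with 102 and 83.5 in #m2c, 103 and 184.4 in #m9c, 0.612 and 3.20 in #m15c and 15.4 and 2.25 in #m5c. *Itga11* was at 342 and 122 CPM, with 1.45 and 4.80 in #m2c, 229 and 126 in #m9c, 0.612 and 7.47 in #m15c and 68.0 and 36.9 in #m5c. The female #m9c sum of *Itga11* lay above the female #m8c sum, which sets this gene apart from the other 3 markers: it was shared with #m9c. In the main edgeR fit described below, 0 of the 4 were called against #m2c. *Ephx3* was called against the venous clusters, and *Ephx3* and *Notch3* against the second layer. These are 0%, 25% and 50% of the 4, beside 0.547%, 0.0659% and 0.152% of all genes. *Il34* and *Itga11* were called in none of the 3 comparisons. Against #m2c the log2 differences of *Ephx3*, *Il34* and *Itga11* were 2.16 ± 0.55, 1.98 ± 0.92 and 6.25 ± 1.27 (SE). By DESeq2, *Il34* was called against the venous clusters and the second layer, and *Itga11* against #m2c and the venous clusters. Per kilobase of exon, the scale on which genes can be compared, *Il34* was at 171 and 197 CPM per kb in #m8c, beside 1625 and 2196 for *Myl9*, the regulatory light chain of myosin.

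**Figure D1:**
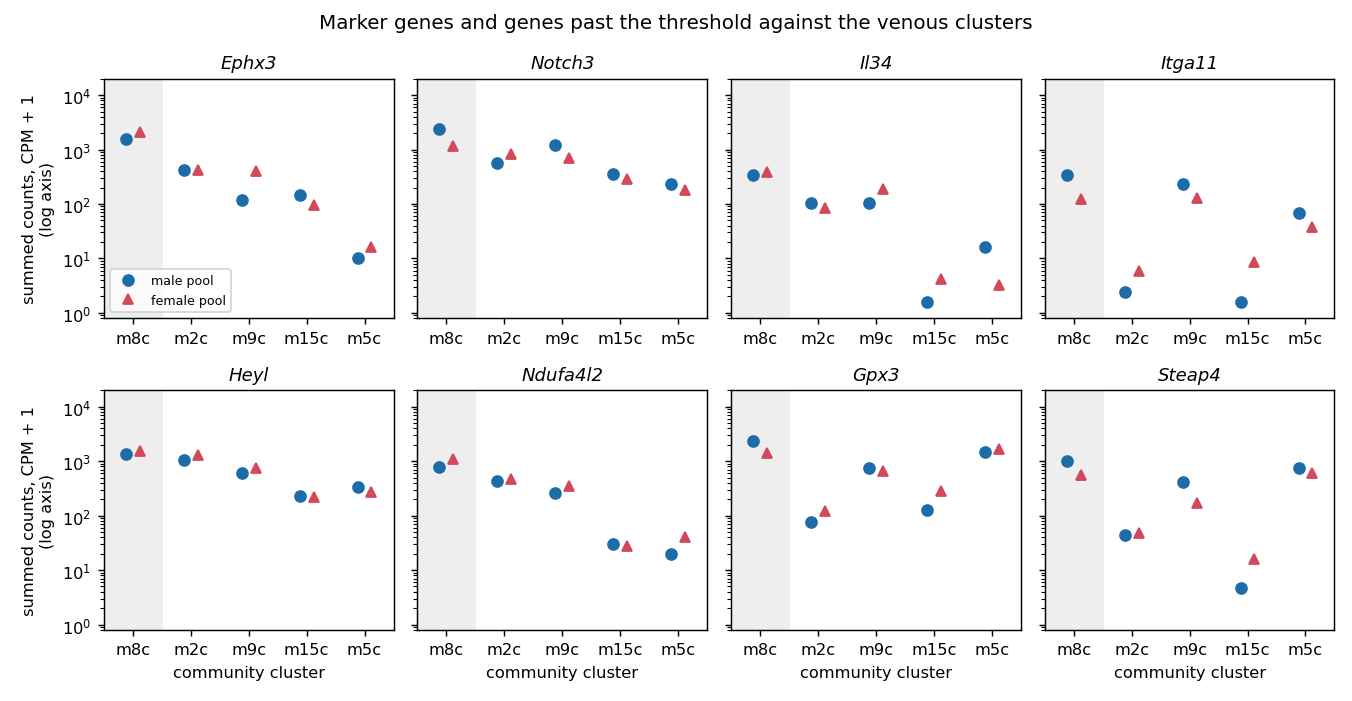
CPM + 1 (log axis) of 8 genes in the 10 sums, with clusters on the horizontal axis, the male pool as circles, the female pool as triangles and #m8c shaded. *Ephx3* stands at 1595 and 2068 CPM in #m8c and at 426 or lower elsewhere, *Itga11* in #m9c is at 229 and 126 CPM beside 342 and 122 in #m8c, and *Gpx3* is high in #m8c and #m5c.

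The label was checked against marker genes of cell types that such a sort can hold. The 7 general mural markers summed to 10961 and 13884 CPM in #m8c, against 2175 and 3982 CPM in the second layer. The 5 arterial markers summed to 170 and 411 CPM, against 3885 and 3915 in #m2c, and the 3 markers of large vein muscle to 154 and 137 CPM, against 2284 and 2621 in #m15c. The 2 venous markers were at 907 and 289 CPM, against 1419 and 1147 in #m9c and 95.8 and 131 in #m2c. By these lists #m8c was mural and neither arterial nor of the #m15c kind. The pericyte markers, given below, summed highest in #m8c in both pools. The counts do not show which vessel a cell came from. In the paper, in situ hybridization found *Ephx3* in mural cells of both the peribiliary plexus and the portal vein. The authors' annotation called 71 of the 72 cells venous SMC and 1 arterial SMC.

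Endothelial and immune markers were low, and the fibroblast sum rested mostly on 1 gene. The 5 endothelial markers summed to 15.2 and 5.39 CPM, against 7908 CPM over the endothelial cells. The 5 immune markers summed to 29.9 and 2.39 CPM, against 8201 CPM over the immune cells. The hepatocyte markers summed to 432 and 850 CPM, against 15440 CPM in hepatocytes. *Alb*, the plasma protein of hepatocytes, was at 186 and 669 CPM in #m8c and between 72 and 427 CPM in the other 8 sums. The 9 fibroblast markers summed to 3252 and 2005 CPM, with 185 and 429 in #m2c, 2453 and 2906 in #m9c, 3503 and 4169 in #m15c and 7996 and 9157 in #m5c. *Gpx3* made up 71.1% and 71.2% of it in #m8c, and the other 8 summed to 939 and 578 CPM there, 111 and 308 in #m2c, 1699 and 2246 in #m9c, 3374 and 3885 in #m15c and 6523 and 7500.2 in #m5c. The 8 hepatic stellate markers summed to 836 and 743 CPM, against 12414 CPM in the stellate cluster. Their part in the differences below was not tested.

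Each comparison was fitted with edgeR on the sums, and a gene was called at an adjusted p under 0.05 with a log2 fold change of at least 1. Because the authors had drawn the clusters from the same counts, a call only sets the size of a difference beside the spread between pools and is no test of whether the cluster exists. The 3 comparisons share the #m8c sums, so their gene lists are not independent of each other.

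Against arterial SMC, portal vein mural cells had more of 13 fibrillar collagen and elastic fibre genes and of the receptors *Ednrb* and *Agtr1a*, and less of *Klf2*, *Ppp1r12a* and *Pdlim3*. Of 15177 genes tested, 73 were called higher (0.481%) and 10 lower (0.0659%), 0.547% in all. The split of higher and lower calls depended on the fit, with 307 and 240 by DESeq2, 154 and 99 without a filter on low counts and 57 and 38 with sums per plate. Among the 73 were 15 γ-protocadherin genes, which share constant exons and had near-equal levels (median 310 CPM in the male #m8c sum over the 22 tested), so their reads cannot be assigned to 1 gene each. A fit blocked by pool called 143 genes. Leaving out the male or the female #m8c sum left 26 and 50 calls, leaving out either #m2c sum 35 and 52, leaving out either #m15c sum 185 and 174, and leaving out the plate with 34 of the cells 47.

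Of the 10 genes with the largest increase, *Chrdl1*, a secreted BMP antagonist, was at 811 and 237 CPM against 1.31 and 3.21 in #m2c (log2 difference 7.87 ± 0.97 SE). *Masp1*, a protease of the lectin complement pathway, was at 200.5 and 54.4 CPM against 1.31 and 1.68 (6.41 ± 1.10). *Colec11*, a collectin that starts the same pathway, was at 2012 and 2523 CPM against 99.9 and 117 (4.42 ± 0.43). In all 3 the arterial sums were well under either portal vein sum. *Sdc1*, a heparan sulfate proteoglycan of the cell surface, was at 1214 and 1210 CPM against 22.3 and 7.53 (6.34 ± 0.87). *Ednrb*, the endothelin B receptor, was at 1167 and 658 CPM against 12.7 and 12 (6.21 ± 0.46). *Nr1h4*, the bile acid receptor FXR, was at 136 and 138 CPM against 0.889 and 3.48 (6.03 ± 0.99). Several of these genes were not highest in #m8c: *Chrdl1*, *Masp1*, *Ednrb* and *Nr1h4* had higher sums in #m9c, at 1110 and 877, 411 and 179, 2118 and 1722, and 331 and 265 CPM. *Hsd11b1*, which regenerates active glucocorticoid, was at 1273 and 839 CPM against 20.8 and 28.3 (5.46 ± 0.60). *Ccl19*, the CCR7 chemokine, was at 260 and 195 CPM against 8.98 and 8.88 (4.69 ± 0.69). *Tmem119* (689 and 702 against 5.85 and 20 CPM) and *Ms4a4d* (402 and 185 against 3.51 and 7.26 CPM) completed the 10.

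The 10 genes called lower were *Klf2*, *Hspb7*, *Hspb6*, *Rcan2*, *Itpk1*, *Ppp1cb*, *Ppp1r12a*, *Pdlim3*, *Dstn* and *Ckb*. *Klf2*, a flow-responsive transcription factor, was at 2.31 and 0.898 CPM in #m8c against 530 and 119 in #m2c (log2 difference −7.64 ± 1.30). It was also low in #m9c and #m15c, at no more than 2.95 CPM. *Hspb7* was at 14.1 and 6.88 CPM against 413 and 653 (−5.62 ± 0.86), and *Hspb6*, the small heat shock protein of relaxing muscle, at 73.6 and 24.5 against 788 and 731 (−3.95 ± 0.62). *Rcan2*, a calcineurin inhibitor, was at 85.9 and 170 CPM against 2200 and 1576 (−3.85 ± 0.70). *Ppp1cb* and *Ppp1r12a*, the catalytic and the targeting subunit of myosin phosphatase, were at 137 and 64.9 and at 86.9 and 98.1 CPM, against 1006 and 546 and 688 and 645 in #m2c (−2.96 ± 0.55 and −2.82 ± 0.48). *Pdlim3*, a Z-disc adaptor, was at 124 and 203 against 968 and 1090 CPM (−2.61 ± 0.49). *Dstn*, which severs actin, was at 564 and 539 CPM against 2697 and 2540 (−2.22 ± 0.32), *Ckb*, the brain-type creatine kinase, at 441 and 524 against 1567 and 2139 (−1.90 ± 0.34), and *Itpk1* at 52.0 and 77.8 against 527 and 567 (−3.03 ± 0.54).

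Against the venous clusters, taken with equal weight, 8 genes were called higher (0.0527%) and 2 lower (0.0132%), 0.0659% in all. Those called higher included *Steap4*, *Ephx3*, *Ndufa4l2*, *Hsd11b1*, *Ifitm1*, *Gpx3* and *Heyl*. Blocking by pool gave 18 calls. The count was 0 without either #m8c sum, where 1544 and 1077 genes had an unadjusted edgeR p under 0.05, and 591 by DESeq2 on all sums. It was 301 without the female #m15c sum, 16 without the male one, 42 and 29 without the male and female #m2c sum, 20 and 19 without those of #m5c, and 5 without the plate with 34 cells. The median log2 difference over all genes tested was 0.22, so the values here sit on that shift.

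*Steap4*, a metalloreductase, was at 1008 and 547 CPM against 414 and 171 in #m9c and 3.67 and 14.8 in #m15c (3.85 ± 0.53). *Ephx3* differed by 3.39 ± 0.45 on the log2 scale. *Ndufa4l2*, a hypoxia-linked homolog of a respiratory chain subunit, was at 788 and 1102 CPM against 256 and 355 in #m9c and 28.8 and 26.3 in #m15c (3.38 ± 0.39). *Heyl* was at 1337 and 1552 CPM against 608 and 762 and 230 and 220 (1.89 ± 0.26). For *Steap4*, *Ndufa4l2* and *Heyl* every #m8c sum was above every venous sum, and #m9c was the nearer of the 2 venous clusters. *Ifitm1* (947 and 590 CPM) and *Gpx3*, the secreted glutathione peroxidase (2312 and 1427 CPM), followed the same order, with 371 and 494 and 754 and 660 CPM in #m9c and 19.0 and 39.4 and 128 and 284 CPM in #m15c. The 2 genes called lower were *Fgfr2*, a fibroblast growth factor receptor, at 3.85 and 6.58 CPM against 531 and 231 in #m9c and 116 and 150 in #m15c (−5.44 ± 0.78), and *Efemp1*, an elastic fibre glycoprotein, at 4.90 and 20 CPM against 722 and 758 and 72.2 and 175 (−4.59 ± 0.68).

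Against the second layer, 15 genes were called higher (0.0988%) and 8 lower (0.0527%), 0.152% in all. Blocking by pool gave 49 calls. Leaving out the female #m8c sum left 13 calls, and either #m2c sum 69, either #m9c sum 51 and 53, and the male and female #m15c sum 92 and 85. The 10 largest increases were led by *Ephx3* (log2 difference 7.28 ± 0.70) and held the adhesion molecules *Mcam* (543 and 755 against 22.6 and 13.4 CPM), *Esam* (347 and 892 against 22.8 and 13.8 CPM) and *Bcam* (503 and 378 against 15.4 and 23.8 CPM), all 3 of the immunoglobulin family. *Tinagl1*, a matrix protein of the vessel wall, was at 1414 and 1834 CPM against 71.7 and 91.9 (4.36 ± 0.38). *Myh11*, the smooth muscle myosin heavy chain, was at 1171 and 1887 CPM against 78.2 and 175 (3.65 ± 0.48). *Notch3* (3.11 ± 0.44), *Ndufa4l2* (5.07 ± 0.55), *Aspn* (467 and 236 against 32.2 and 28.7 CPM) and *Gprc5c* (236 and 565 against 7.68 and 6.36 CPM) were the others. None of the second layer sums of these 10 genes reached a portal vein sum.

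Among the 8 genes called lower, 1 (*Lum*) is of the 9 fibroblast markers, 11.1% of that list beside 0.0527% of all genes. In both pools 6 of the 9 were below #m5c, and their median log2 difference was −3.09. *Fgfr2* and *Efemp1* were again at the head, at 856 and 284 and at 1408 and 1201 CPM in #m5c. *Lum*, a collagen-binding proteoglycan, was at 215 and 281 CPM against 1946 and 2405 (−3.09 ± 0.41), *Fbln1* at 323 and 170 against 1881 and 2602 (−3.16 ± 0.53) and *Tgfbi* at 123 and 56.8 against 1656 and 1708 (−4.20 ± 0.58). *Gas6*, a ligand of the TAM receptors, was at 357 and 336 CPM against 2441 and 3162 (−2.98 ± 0.49). *Colec12* (27.6 and 14.1 against 437 and 529 CPM) and *Cyp2e1*, which is also a hepatocyte gene (107 and 44.3 against 2158 and 1015 CPM), completed them. The 5 hepatocyte markers other than *Cyp2e1* summed to 131 and 530 CPM in #m5c and to 325 and 806 in #m8c.

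The contractile list placed #m8c between arterial SMC and the second layer. Of its 33 genes, 2 were called lower than in #m2c (*Ppp1r12a* and *Pdlim3*), 0 were called against the venous clusters and 3 were called higher than in #m5c (*Myh11*, *Tpm1*, *Tpm2*). These are 6.06%, 0% and 9.09% of the list, beside 0.547%, 0.0659% and 0.152% of all genes. The median log2 difference of the list was −1.27, −0.41 and 1.63 in the 3 comparisons, beside −0.03, 0.22 and −0.01 over all genes tested. *Acta2*, smooth muscle actin, was at 2688 and 3846 CPM in #m8c, 7914 and 5895 in #m2c, 3309 and 3023 in #m9c, 5661 and 5951 in #m15c and 286 and 934 in #m5c. *Cnn1*, calponin, was at 105 and 200 CPM, near 122 and 281 in #m9c, with 1150 and 1168 in #m2c and 1539 and 2125 in #m15c. *Pln*, the brake on the calcium pump of the sarcoplasmic reticulum, was at 0.210 and 6.28 CPM against 908 and 566 in #m2c and 0.500 and 5.42 in #m9c. The differences of *Acta2*, *Cnn1* and *Pln* from #m2c were not called. The highest count per exon base of any gene of at least 1 kb was 1.76, and 0 genes passed 2 per base, and whether the counting limited the most abundant muscle genes was not tested.

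**Figure D2:**
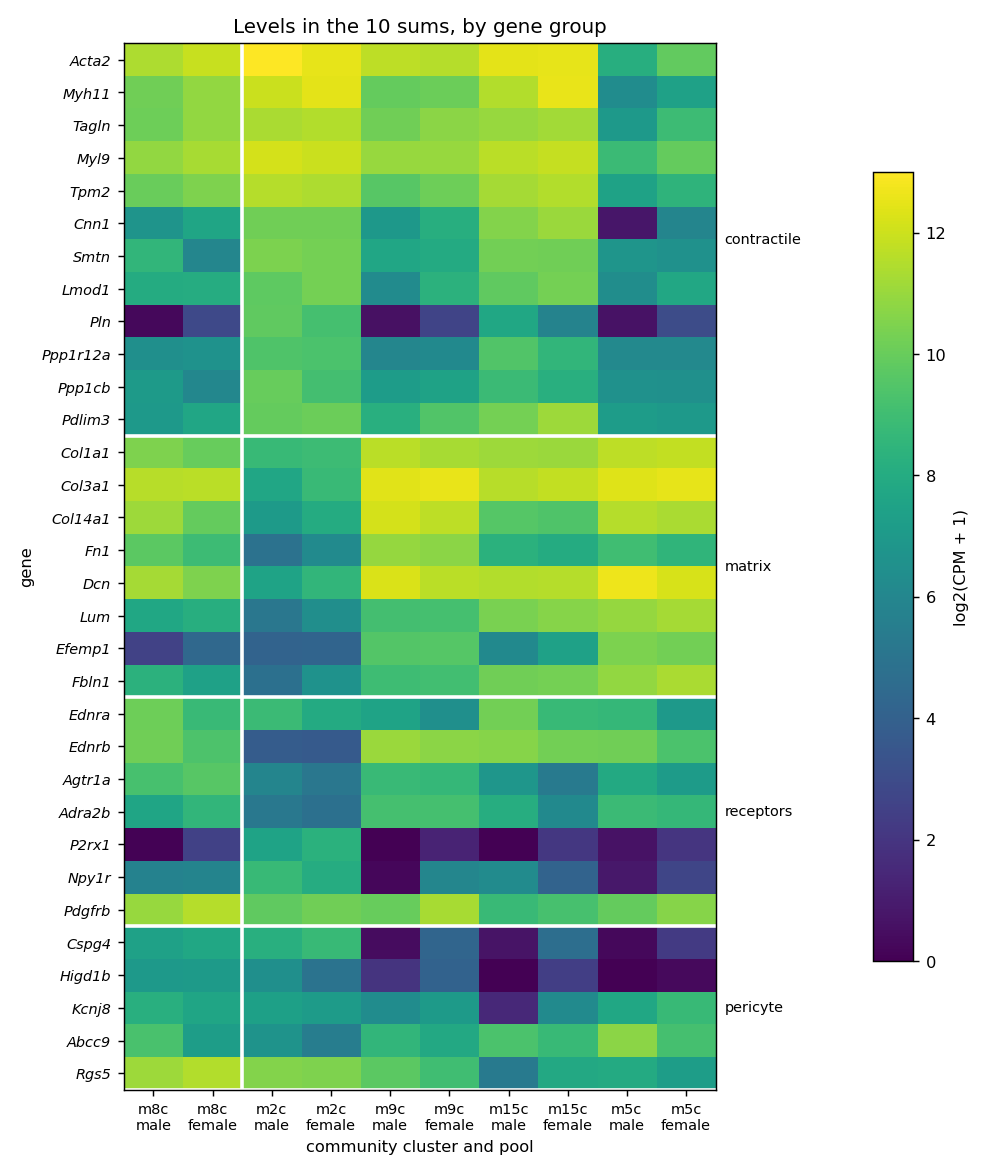
Colour gives log2(CPM + 1) of 32 genes in the 10 sums, with cluster and pool in columns and genes in rows, grouped by role. Contractile genes in #m8c resemble #m9c, matrix genes other than *Efemp1* lie above #m2c and mostly below #m9c and #m5c, and *Cspg4* and *Higd1b* are seen in #m8c and #m2c.

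Fibrillar collagen and elastic fibre genes were the list with most calls against arterial SMC. Of 43 genes 13 were called higher and 0 lower, which is 30.2% of the list beside 0.481% of all genes, and the list's median log2 difference was 1.92. They included *Col3a1* (3166 and 3195 against 209 and 446 CPM, 3.34 ± 0.31), *Col1a1* (1446 and 1024 against 439 and 483, 1.45 ± 0.25), *Fn1* (857 and 483 against 28.9 and 74.7, 3.74 ± 0.49) and *Dcn*, the proteoglycan decorin (2436 and 1457 against 188 and 371, 2.84 ± 0.36). Against the venous clusters *Efemp1* was the 1 call of this list (2.33%, beside 0.0659% of all genes), and the median was −0.24. Against the second layer *Aspn* was called higher and *Fbln1*, *Efemp1* and *Lum* lower (9.30%, beside 0.152% of all genes), with a median of −0.77. Of the 38 tested basement membrane and integrin genes, *Col4a1* (1126 and 855 against 245 and 338 CPM) and *Sparc* (3506 and 3472 against 1379 and 1642 CPM) were called higher than in #m2c, 5.26% of the list beside 0.481% of all genes, and 0 were called in the other comparisons. Against #m2c the list's median was −0.12, with 15 genes above and 14 below in both pools. *Npnt*, a basement membrane ligand, was at 0.0699 and 4.19 CPM in #m8c and at 985 and 1790 CPM in #m15c.

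Of 29 tested receptors for vasoactive signals, 2 were called higher than in #m2c, *Ednrb* and *Agtr1a* (6.90% of the list beside 0.481% of all genes), and 0 were called against the venous clusters or the second layer. The list median was 0.60, 1.11 and 0.47 in the 3 comparisons, with 11, 15 and 12 genes higher and 9, 6 and 10 lower in both pools. *Agtr1a*, the angiotensin II receptor, was at 599 and 794 CPM in #m8c, against 59.9 and 35.1 in #m2c (3.89 ± 0.63), 450 and 408 in #m9c, 111 and 39.1 in #m15c and 240 and 141 in #m5c. It was highest in #m8c in both pools. *Ednra*, the endothelin A receptor, was at 1119 and 451 CPM, with 471 and 242 in #m2c and 1220 and 437 in #m15c. *P2rx1*, the ATP-gated channel of arterial muscle, was at 0.0699 and 4.79 CPM against 186 and 311 in #m2c, and *Npy1r*, a neuropeptide Y receptor, at 52.9 and 56.8 against 437 and 267. Both endothelin receptors were therefore counted in #m8c, while #m2c had *Ednra* with little *Ednrb*. Of 34 tested ion channel and pump genes, 1 was called, *Atp1b2*, a sodium pump subunit that was higher than in the second layer (891 and 676 against 73.9 and 123 CPM), which is 2.94% of the list beside 0.0988% of all genes. In both pools 20 of the 34 had lower values than in #m2c, and the list's median log2 difference was −0.84, 0.05 and 0.08 in the 3 comparisons. *Kcnab1*, a potassium channel subunit, was at 0.140 and 2.09 CPM against 366 and 283 in #m2c, a difference that was not called.

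In the Notch list, 17 of 22 genes were tested. None was called against #m2c, *Heyl* was called higher than in the venous clusters, and *Notch3* and *Heyl* were called higher than in the second layer. These are 0%, 5.88% and 11.8% of the list, beside 0.547%, 0.0659% and 0.152% of all genes. *Heyl* in #m2c, at 1046 and 1277 CPM, was next to its level in #m8c (log2 difference 0.36 ± 0.31). *Jag1*, a Notch ligand, was at 178 and 168 CPM, against 110 and 150 in #m2c, 84.7 and 25.1 in #m9c and 27.1 and 18.8 in #m5c. *Hes1*, another target, was at 158 and 85.6 CPM against 515 and 267 in #m2c. *Gja4*, the connexin of arterial endothelium and mural cells, was at 712 and 1172 CPM, against 603 and 979 in #m2c and 183.6 and 142 in #m9c. The list median was 0.34, 1.89 and 1.14 in the 3 comparisons.

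Of 20 tested genes of eicosanoid and epoxide metabolism, *Ephx3*, itself among the 4 marker genes, was the 1 call, against the venous clusters and against the second layer. That is 5% of the list in each, beside 0.0659% and 0.152% of all genes. Of the other epoxide hydrolases, *Ephx1* was at 339 and 315 CPM, inside the range of 159 to 405 CPM of the other sums, and *Ephx2* at 29.7 and 1.80 CPM. *Cyp4b1*, a cytochrome P450 mono-oxygenase, was at 175 and 84.1 CPM in #m8c and at most 16.2 CPM in the other 8 sums, and was counted in 28 of 72 cells, beside 46.6% of immune cells and 27.0% of hepatocytes. *Tbxa2r*, the thromboxane receptor, was at 297 and 471 CPM, with 266 and 435 in #m9c. *Ptgdr*, the prostaglandin D2 receptor, was at 32.3 and 115 CPM, and those counts came from 5 cells.

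Among 78 tested secreted factors, 4 were called higher than in #m2c (*Ccl19*, *Cxcl12*, *Chrdl1*, *Dkk3*), 5.13% of the list beside 0.481% of all genes, and 0 in the other comparisons. *Cxcl12*, the CXCR4 chemokine, was at 2318 and 2195 CPM against 213 and 438 in #m2c (2.85 ± 0.47), with 3615 and 3250 in #m9c and 5188 and 3940 in #m5c. *Ntf3*, a neurotrophin, was at 328 and 481 CPM and had like values in #m2c, at 370 and 352. *Fgf1* was at 0.490 and 2.69 CPM against 322 and 306 in #m2c. Of the 57 tested transcription factors, *Nr1h4* was called higher and *Klf2* lower than in #m2c, and *Heyl* higher in the other 2 comparisons. These are 3.51%, 1.75% and 1.75% of the list, beside 0.547%, 0.0659% and 0.152% of all genes. *Foxs1*, a forkhead factor of mural cells, was at 356 and 497 CPM, above the 54.6 to 246 CPM of the other sums. *Osr1* was at 15.1 and 7.18 CPM against 513 and 783 in #m15c.

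*Pdgfrb*, the receptor that recruits mural cells, was at 2065 and 2955 CPM and was counted in 71 of 72 cells. In the list of PDGF, TGF-β and BMP genes *Eng*, a co-receptor, was the 1 call of 27 (990 and 856 against 125 and 273 CPM in #m2c), which is 3.70% of the list beside 0.481% of all genes, and 0 were called in the other 2 comparisons. In the retinoid and lipid list, 2 of 15 tested genes (13.3%, beside 0.481% of all genes) were called higher than in #m2c, among them *Aldh1a1* (475 and 485 against 89.8 and 35.2 CPM). *Lrat*, which makes the retinyl esters that stellate cells store, was at 213 and 396 CPM against 1554 and 1292 in #m5c, and was counted in 49 of 72 cells but with 20 or more counts in 23.6% of them. None of the 21 tested genes of the dissociation and stress list was called, and *Fos* was at 783 and 1545 CPM, with 5374 and 4412 in #m2c and 89.9 and 498 in #m9c. Of these 21, 18 were lower than in #m2c and 16 higher than in #m5c in both pools, and their part in those comparisons was not tested.

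By a rule chosen after the values were seen, 9 of 15177 genes (0.0593%) had both #m8c sums at 2 or more times the highest of the other 8 sums, with 1 CPM added, and a count in at least 50% of the #m8c cells. The same rule gave 76 genes for #m2c, 30 for #m15c, 28 for #m5c and 6 for #m9c. Of these 9, *Ephx3* had the largest ratio, 3.73. *Vtn*, the adhesion protein vitronectin, was at 2107 and 2126 CPM with 845 CPM as the highest other sum, and was counted in 68 of 72 cells, beside 79.4% of hepatocytes. *Rem1*, a small GTPase that dampens calcium channels, was at 497 and 459.5 CPM against at most 171. *Slc35f6* was at 586 and 654 against at most 242, *Esyt1* at 510 and 510 against at most 245 and *Pde6h*, which 87.2% of immune cells held, at 80.6 and 75.7 against at most 26.5. *Arhgdib* (382 and 362 CPM, 47 cells) and *Slc11a1*, a phagosomal metal transporter (346 and 388 CPM, 43 cells), are genes that 96.6% and 86.4% of the 648 immune cells also held, whereas *Ptprc*, the pan-leukocyte marker, was counted in 5 of the 72 cells. *Ephx3* was the 1 gene of these 9 that was called in any comparison.

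Within the cluster, *Ephx3* was counted in 64 of 72 cells (88.9%, exact 95% interval 79.3 to 95.1%) and *Notch3* in 69 (95.8%, 88.3 to 99.1%). *Il34* was counted in 48 (66.7%, 54.6 to 77.3%) and *Itga11* in 37 (51.4%, 39.3 to 63.4%). These intervals cover counting error over cells only. Beside them, 4.48% of immune cells and 4.76% of hepatocytes had a count of *Ephx3*, and for the other 3 markers the shares were 2.93% and 10.1%, 1.39% and 6.35%, and 2.01% and 10.6%, at median depths of 253308 and 158133 counts. After each cell was thinned to 50000 counts, *Ephx3* was held by 87.5% of #m8c cells, 47.9% of #m2c, 46.2% of #m9c, 33.3% of #m15c and 21.8% of #m5c. *Il34* was held by 63.9%, 23.3%, 38.5%, 12.1% and 4.60% in the same order. All 4 markers were counted together in 23 cells of #m8c (31.9%), against 11.4% of #m2c cells, 20.5% of #m9c, 21.2% of #m15c and 6.90% of #m5c. In the same order, 3 or more were counted in 75%, 35.6%, 46.2%, 57.6% and 24.1% of cells, without thinning. A single count of a marker sufficed for these shares. The median number of genes per cell was 6280 in #m15c and 3924.5 in #m8c, and its part in these shares was not tested.

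**Figure D3:**
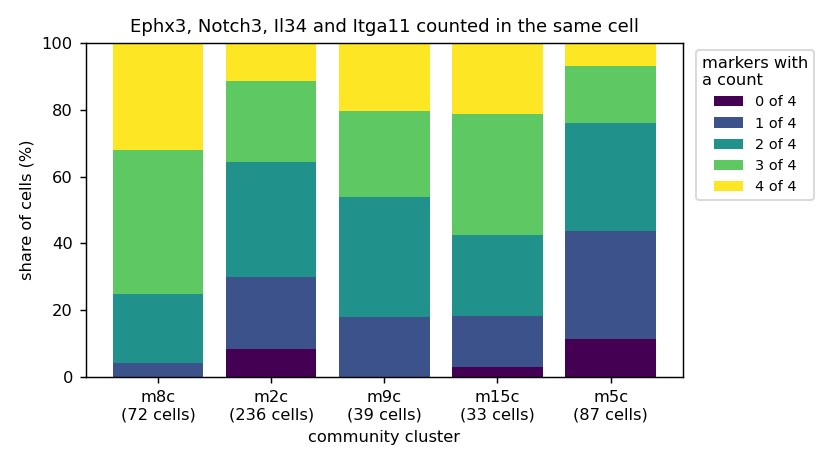
Bars give the share of cells (%) of each cluster that held a count of 0, 1, 2, 3 or 4 of *Ephx3*, *Notch3*, *Il34* and *Itga11*, with the number of cells under each bar. In #m8c 23 of 72 cells held all 4. Cells with none numbered 0 in #m8c and #m9c, 1 of 33 in #m15c, 20 of 236 in #m2c and 10 of 87 in #m5c.

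Levels in single cells spread widely. *Ephx3* ranged from 0 to 5706 CPM per cell (quartiles 492, 1446 and 2750) and *Notch3* from 0 to 10043 (794, 1830 and 2781). *Il34* had a median of 222 CPM, and *Itga11* one of 3.36 CPM with a highest cell at 8976, so its sum rests on fewer cells. Plates differed in depth and in the share of cells with *Ephx3*. A plate with 5 cells, named for the *Acta2* reporter, had a median of 79209 counts per cell and held *Ephx3* in 2 of 5 cells, and a second with 10 cells had a median of 87450 and held it in 6 of 10. After thinning to 50000 counts these shares were still 40% and 60%, against 94.1 to 100% on the other plates. Thinning equalizes the number of reads and not the complexity of a library. The same 2 plates had medians of 1800 and 2325.5 genes per cell, against 3616 to 5859 on the others. Their median ERCC shares were 5.81% and 1.77%, against 1.08 to 2.01%. The cause of the lower shares was not tested. On the plate with 34 cells *Ephx3* was at 1647 CPM, and on the female plate at 2068 CPM. Over the 6 plates with at least 3 cells, summed *Ephx3* lay between 1138 and 2068 CPM, whereas *Ednrb* lay between 68.6 and 2183 and *Hic1*, a transcriptional repressor, between 0.513 and 525. *Cnn1* was counted in 12 of 12 female cells and 11 of 60 male cells, and on thinned counts the female plate held it in 66.7%.

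**Figure D4:**
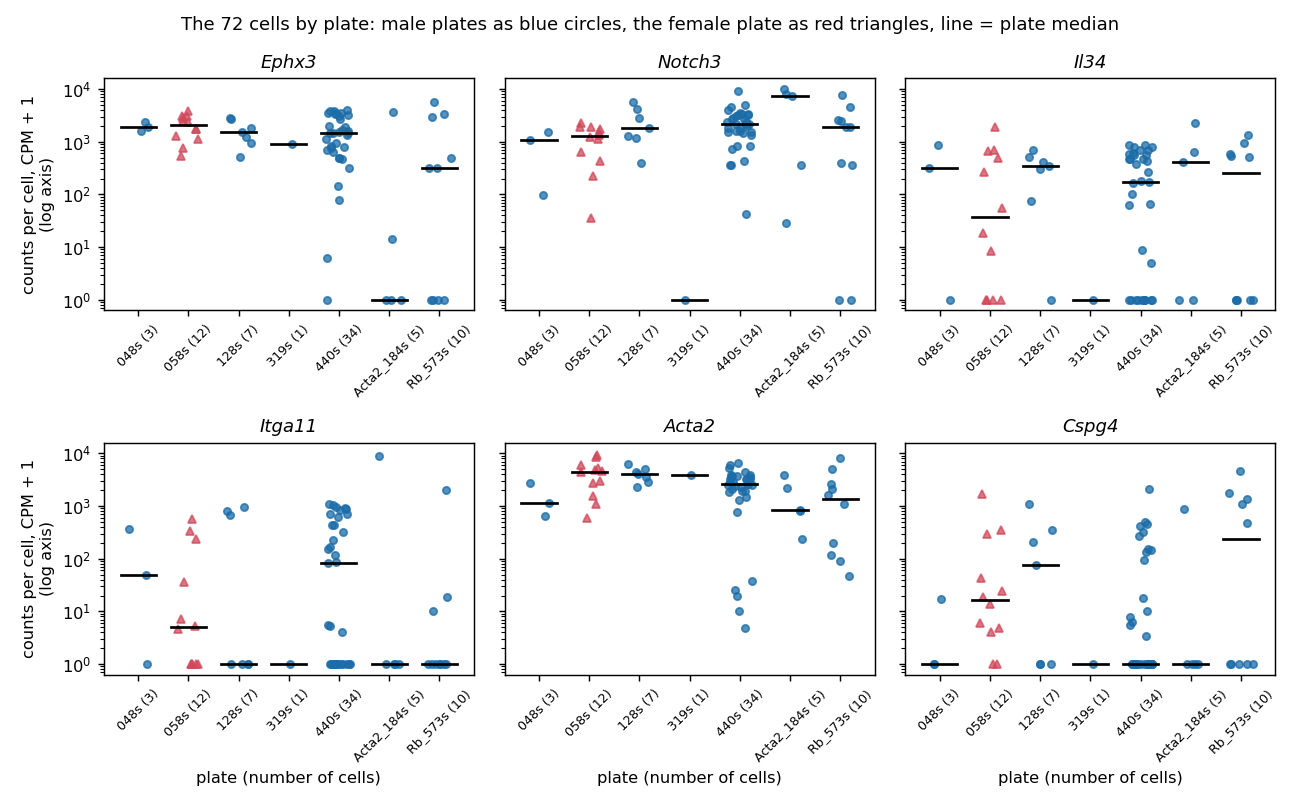
CPM + 1 (log axis) of 6 genes in each of the 72 cells, by plate with the number of cells in brackets, male plates as circles, the female plate as triangles and a line at each plate's median. A value of 1 is a cell with no count. *Ephx3* and *Acta2* are spread over all plates, *Itga11* and *Cspg4* are at 0 in many cells, and 7 cells have *Acta2* under 100 CPM.

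Pericyte genes were counted in part of the cells. The 6 pericyte markers summed to 3745 and 3946 CPM in #m8c, against 2261 and 2134 in #m2c. Their sums were 1320 and 908 in #m9c, 669 and 770 in #m15c and 2180 and 1146 in #m5c. *Rgs5* made up 58.5% and 72.7% of the #m8c sums. Without *Rgs5* the sums were 1555 and 1079 in #m8c and 1937 and 994 in #m5c, so the male order against #m5c turned. *Higd1b*, a pericyte marker, was counted in 36 cells (50%), and *Cspg4*, the proteoglycan NG2, in 37 (51.4%). Both were counted together in 20 of 72 cells (27.8%), against 42 of 236 #m2c cells (17.8%), 3 of 39 in #m9c, 1 of 33 in #m15c and 2 of 87 in #m5c. By plate, over the 6 plates with at least 3 cells, summed *Higd1b* lay between 33.1 and 183 CPM and *Cspg4* between 1.33 and 641 CPM.

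In 7 cells *Acta2* was under 100 CPM, at 3.76 to 87.9 CPM, and the other 65 had a median of 2822 CPM. The mark was set after the values were seen and lies in no gap: the next cells had 118, 199 and 231 CPM, and the cell at 118 CPM had the highest *Cspg4* of the cluster, 4711 CPM. All 7 were of the male pool, 5 on the plate with 34 cells and 2 on another, with a median of 162476 counts per cell against 231239 in the others. All 7 held *Ephx3* (median 1434 CPM, against 1457 in the others) and *Notch3* (1911 against 1824 CPM). *Heyl* was at a median of 628 against 1294 CPM, and *Itga11* was counted in 1 of the 7 and in 36 of the other 65. All 7 held *Abcc9*, a subunit of the pericyte potassium channel (2398 against 37.8 CPM). Its pore subunit *Kcnj8* (954 against 3.85 CPM) and *Cspg4* (320 against 0 CPM) were each held by 6. The paper names *Abcc9* and *Kcnj8* among markers whose expression overlaps between mesenchymal cells of the liver. *Ednra* was at a median of 2652 against 729 CPM. *Tagln* was at 16 against 1295 CPM, *Chrdl1* at 0 against 382 and *Sdc1* at 0 against 1110, while *Myl9* was at 1286 against 1960 CPM and *Pdgfrb* at 1974 against 2084. *Lrat* was at most at 7.99 CPM in each. *Ptprc* was counted in 0 of the 7, which by the limit of 3 counts, for counting error only, allows a share of up to 42.9% of cells with a count. Cells with *Acta2* under 100 CPM numbered 3 in #m2c, 1 in #m9c, 0 in #m15c and 42 in #m5c. *Ephx3* was held by 3 of the 3 in #m2c, the 1 in #m9c and 12 of the 42 in #m5c, and *Cspg4* by 2, 0 and 1 of them.

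Libraries of #m8c and #m2c were also compared on the 4 plates that hold at least 3 cells of each. Only values are given, since an exact two-sided sign-flip test over 4 plates cannot go below p = 0.125. The difference in median counts per cell, #m8c minus #m2c, was −69999, −15590, −94752 and 2972, the difference in genes with a count 486, −328, −699 and 135, and that in the share of ERCC spike-in RNA −0.0104, 0.436, 3.47 and 0.116 percentage points. Counts and genes did not differ in 1 direction, and the ERCC share was higher in #m8c on 3 of the 4 plates. By means in place of medians, the ERCC differences were 0.497, 0.587, 2.52 and 0.355 percentage points, and the first difference in counts was 28421.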

How the data were processed

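The authors deposited raw counts of reads per gene and cell from Smart-seq2 libraries with single reads of 50 bases, without normalization. The submitters' processing notes name bcl2fastq, Bowtie2, featureCounts (Subread) and Seurat and the builds GRCm38 and mm10. Before deposit, cells with few counts or genes, a high mitochondrial or ERCC share, or very many genes were removed. The authors also removed cells that looked contaminated by another cell type. Low marker sums of other cell types were therefore partly set beforehand. The rest were clustered by the authors with pagoda2. No doublet caller was run here, and 40 cells on small plates were not used.

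The 92 ERCC spike-ins were left out, and the counts were summed per community cluster and pool (at least 5 cells) and fitted in 1 edgeR 4.0.16 model (R 4.3.3, TMM, filterByExpr, quasi-likelihood, robust) with DESeq2 1.42.0 as an alternative. P-values were adjusted by Benjamini-Hochberg over all genes, and the fit was tested on simulated data, where it missed nearly all of the smaller and most of the larger changes put in. A gene that was not called is therefore not shown to be equal. The p-values measure only the spread between pools. Named are up to 10 called genes per direction with the largest log2 fold change that had a count in at least 50% of cells of the higher side and the same direction in each pool, with examples from gene lists. Members, lists and comparisons were chosen with earlier results of these data known. Sums with the same number come from the same pool of cells, which pairs them. The correlation of their deviations between clusters was 0.0244 to 0.142. The unblocked fit is the main one, and blocked counts stand beside it. Gene lengths and positions are from GENCODE vM21 (GRCm38) and promoters from RefSeq. Other values used Python 3.11.15, numpy 2.4.6, pandas 2.3.3 and scipy 1.17.1. Some genes of the lists are not reported here.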

Additional observations from a re-analysis of the deposited data

How the results depend on the processing

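The number of called genes depended strongly on the fit. In the order arterial, venous and second layer, the main counts of 83, 10 and 23 became 547, 591 and 514 by DESeq2, 253, 203 and 185 without a filter on low counts, and 143, 18 and 49 with the pool as a replicate block. They became 185, 16 and 92 with at least 10 cells per sum, which is the fit without the male #m15c sum, and 132, 31 and 60 with cells thinned to 50000 counts. Sums per plate gave 4 calls against the venous clusters and 250 against the second layer. Without the plate with 34 cells, an alternative added after seeing the data, 47 and 5 genes were called against the arterial and venous clusters. Leaving out each of the 10 sums in turn gave 26 to 185, 0 to 301 and 13 to 92 calls. Leaving out sums of the other clusters was also added after seeing the data. A lone sum was then assumed to vary like the other clusters. Size factors and multilevel cluster 7 kept each count within 1.5 times. A minimum of 3 cells per sum leaves the sums as they are and is no check. The cause of these changes was not tested. Of 846 refits with a test of the 47 fold changes named by the rule, 120 lost the call and 0 turned direction. The rule had already asked for the same direction in each pool, and the refits used largely the same cells. That 0 turned was therefore largely set beforehand and is no independent check. Of the 47 calls, 27 and 26 were lost without the male and the female portal vein sum, and 18 each with sums per plate and without the plate with 34 cells. With 20 counts as the limit, the shares of cells fell to 37.5% for *Itga11*, 34.7% for *Higd1b*, 31.9% for *Cspg4*, 13.9% for *Cnn1*, 18.1% for *Pdgfra*, 23.6% for *Lrat* and 86.1% for *Acta2*. With 2 sums per cluster and 12 cells in the female portal vein sum, a gene that was not called is not shown to be equal.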
